A study of Mus musculus with 2 samples.

Results

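The seed family of miR-130 and miR-301 was examined in the left cerebral cortex of B6CASTF1/J mice, which are F1 hybrids of B6 and CAST parents. It comprised the 4 microRNA (miRNA) genes whose identifiers carry the symbols Mir301, Mir301b, Mir130a or Mir130b in the GENCODE M21 annotation, of 2202 miRNA genes listed. MicroRNA sequencing of total RNA was carried out on 1 group of 2 libraries, each from a male at 10 days of age, and the labels number the animals separately (male 03 for replicate 1, male 04 for replicate 2) under 1 donor entry. The series has no other condition, so the 2 replicates of the group were described side by side. Beyond its symbols, the family was selected on a measured value, the CPM of Mir301, whose difference between these libraries was already known. Values that compare the libraries are therefore given as descriptions, with counting intervals and without a test.

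A miRNA is cut from a hairpin precursor by the nucleases Drosha and Dicer and guides the Argonaute protein to messenger RNAs, chiefly by pairing of its seed, bases 2 to 8 from the 5′ end, with sites in the target. Genes whose mature strands share a seed are grouped into a family because they can bind the same target sites. The family has been studied as a regulator of vessel growth, fat cell formation and pulmonary hypertension, and miR-130a has also been studied in the outgrowth of neurites. Mir301 gives miR-301a and lies in Ska2, which encodes a protein of the spindle and kinetochore complex.

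The mature 3p strands that define the family are shown first, since the seed is what its members have in common. They are given 5′ to 3′ from RefSeq on GRCm38.p6 with the seed in capitals. The RefSeq table matched all 4 genes and held 7 of their mature strands. For Mir301b the hairpin is shown, with the same seed letters in capitals, and the hairpin of Mir301 is given for comparison.
miR-130a-3p: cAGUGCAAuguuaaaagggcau
miR-130b-3p: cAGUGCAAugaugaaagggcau
miR-301a-3p: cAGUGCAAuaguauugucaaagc
Mir301 hairpin: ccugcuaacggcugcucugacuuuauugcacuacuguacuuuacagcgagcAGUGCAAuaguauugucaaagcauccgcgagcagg
Mir301b hairpin: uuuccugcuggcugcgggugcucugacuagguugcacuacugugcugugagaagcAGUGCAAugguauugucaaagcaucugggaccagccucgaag

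The miR-130a-3p strand lies at chr2:84741116-84741137 on the minus strand, miR-130b-3p at chr16:17124071-17124092 on the minus strand and miR-301a-3p at chr11:87113054-87113076 on the plus strand. Counted from 1 at the 5′ end of miR-130a-3p, miR-130b-3p differed from it by U11A and A13G, so 20 of 22 bases were identical. miR-301a-3p matched miR-130a-3p at 12 of 22 bases and miR-130b-3p at 11 of 22. The seed letters stood once in each of the 4 hairpins, at bases 52 to 58 in Mir301 and Mir130b, 56 to 62 in Mir301b and 43 to 49 in Mir130a. Across the RefSeq table they occurred in 12 of 1005 hairpins (1.19%).

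On the opposite strand the 2 miR-301 genes had a seed in common and the 2 miR-130 genes did not. The 5p strands are shown with bases 2 to 8 in capitals because these bases are not common to the family.
miR-301a-5p: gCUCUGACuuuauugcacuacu
miR-301b-5p: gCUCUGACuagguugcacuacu
miR-130a-5p: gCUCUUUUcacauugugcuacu
miR-130b-5p: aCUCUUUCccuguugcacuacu
The 5p seed of miR-301a and miR-301b was the same and occurred in no other of the 1738 mature strands of the table. From miR-301a-5p to miR-301b-5p the differences were U10A, U11G and A12G, and 19 of 22 bases were identical. The 5p seeds of miR-130a and miR-130b differed from each other and from that of the miR-301 strands. Over the whole strand, miR-130b-5p matched miR-130a-5p at 15 of 22 bases and each of the miR-301 5p strands at 16 of 22. The deposited counts give 1 value for each hairpin, so reads of the 3p and 5p strands could not be told apart.

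Hairpins with long identical stretches can lose reads, because a read that maps to more than 1 place was counted for no gene. The longest stretch that a member shared with any of the other 2201 listed hairpins was 16 bases for Mir301 and for Mir301b, which shared it with each other, 17 bases for Mir130a, shared with Mir6389, and 16 bases for Mir130b, shared with Mir6368. No shared stretch was as long as a whole mature strand of 22 bases. On the strand opposite to each gene, 0 reads were counted for all 4 members in both libraries, and the unstranded counts of the members were equal to their sense counts.

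Replicate 1 held 2677910 sense reads over all miRNA genes and replicate 2 held 1750076. Levels are given as CPM, that is reads scaled to the same total of sense reads, where 3 reads make 1.12 CPM in replicate 1 and 1.71 CPM in replicate 2. Of the mapped reads, 51.2% and 49.2% had more than 1 place in the genome. The labelled tissue was checked against miRNAs associated with its cell types: of 13 neuron-associated genes 9 reached 2 CPM in both libraries, against 442 of the 2202 genes listed. They were led by Mir128-1 at 18242 and 9510 CPM, while the 3 genes of miR-124, which exist in copies that share sequence, had 0 to 10 reads each. All intervals given are 95% intervals and cover counting error only, since reads copied by PCR are not independent molecules.

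All 4 members reached 2 CPM in both libraries, against 442 of the 2202 genes listed, and 3 of 4 members reached 10 CPM in both. Together the 4 members held 22176 of the assigned reads in replicate 1, or 0.828% (Wilson interval 0.817% to 0.839%), and 8853 in replicate 2, or 0.506% (0.495% to 0.516%). Their mean share was 0.667% ± 0.228 (SD, n = 2). Most of it came from Mir130a, and the members spanned more than 100-fold in level within each library.

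Mir130a, the source of the endothelial and vascular regulator miR-130a, was the most abundant member in both libraries. It had 17221 reads in replicate 1, or 6431 CPM (Wilson interval 6336 to 6527), and 8182 reads in replicate 2, or 4675 CPM (4575 to 4777). Its mean level was 5553 ± 1241 CPM (SD, n = 2), and it ranked 36 and 37 among the 2202 genes. Its hairpin (chromosome 2, 84741115 to 84741178, minus strand, mm10) overlaps no other annotated gene. The nearest annotated gene on its strand was Gm19426, 990 bases away.

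Mir130b, which differs from Mir130a in the mature 3p strand at the positions given above, stood next to last in replicate 1 and was the second most abundant member in replicate 2. It had 1141 reads or 426 CPM in replicate 1 (402 to 452) and 573 reads or 327 CPM in replicate 2 (302 to 355), a mean of 377 ± 69.8 CPM (SD, n = 2). Mir130a held 15.1 times the reads of Mir130b in replicate 1 (exact binomial interval 14.2 to 16.0) and 14.3 times in replicate 2 (13.1 to 15.6). The ratio of these paralogs, on chromosomes 2 and 16, thus had overlapping intervals in the 2 libraries.

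Mir301 was far apart in the 2 libraries. It had 3764 reads or 1406 CPM in replicate 1 (Wilson interval 1361 to 1451) and 89 reads or 50.9 CPM in replicate 2 (41.3 to 62.6). Its SD of 958 CPM (n = 2) was larger than its mean of 728 CPM. It ranked 90 in replicate 1 and 240 in replicate 2, and replicate 1 had 27.6 times the CPM of replicate 2.

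Mir301b, the other source of a miR-301 strand, was the least abundant member in both libraries. It had 50 reads or 18.7 CPM in replicate 1 (Wilson interval 14.2 to 24.6) and 9 reads or 5.14 CPM in replicate 2 (2.71 to 9.77), a mean of 11.9 ± 9.57 CPM (SD, n = 2). The counts are small, but these intervals did not overlap. Mir301 held 75.3 times the reads of Mir301b in replicate 1 (exact binomial interval 57.0 to 101.6) and 9.89 times in replicate 2 (4.98 to 22.3).

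The order of the members therefore differed between the animals. In replicate 1 it ran Mir130a, Mir301, Mir130b, Mir301b, with Mir301 at 3.30 times the reads of Mir130b (3.09 to 3.53). In replicate 2 Mir130b stood above Mir301, which had 0.155 times its reads (0.123 to 0.194). Neighbours in the order were separated beyond counting error within each library. Over the 2 libraries the means of Mir301 and Mir130b did not differ beyond the spread of Mir301, and the top and bottom places of Mir130a and Mir301b were the same in both.

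**Figure D1:**
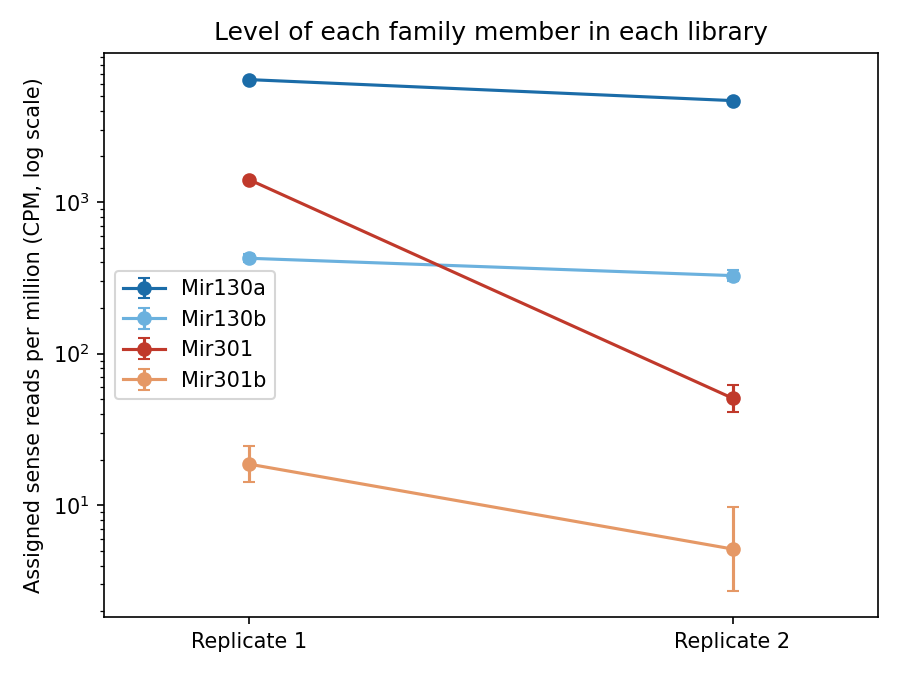
Level of each of the 4 genes in the 2 libraries, in CPM on a log axis; bars are 95% Wilson intervals and lines join the values of 1 gene. Mir301 lies at 1406 CPM in replicate 1 and 50.9 CPM in replicate 2 and crosses Mir130b, while Mir130a lies at the top and Mir301b at the bottom in both.

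The make-up of the family reads differed accordingly. Mir301 supplied 17.0% of them in replicate 1 (exact binomial interval 16.5% to 17.5%) and 1.01% in replicate 2 (0.808% to 1.24%). Mir130a supplied 77.7% (77.1% to 78.2%) and 92.4% (91.8% to 93.0%), and Mir130b 5.15% (4.86% to 5.44%) and 6.47% (5.97% to 7.01%). Mir301b gave 0.225% (0.167% to 0.297%) and 0.102% (0.0465% to 0.193%). The summed level was 3222 CPM lower in replicate 2, of which Mir130a accounted for 54.5% and Mir301 for 42.0%. The abundant Mir130a thus made up more of the difference in reads than Mir301, although its own level was only 1.38 times higher in replicate 1.

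**Figure D2:**
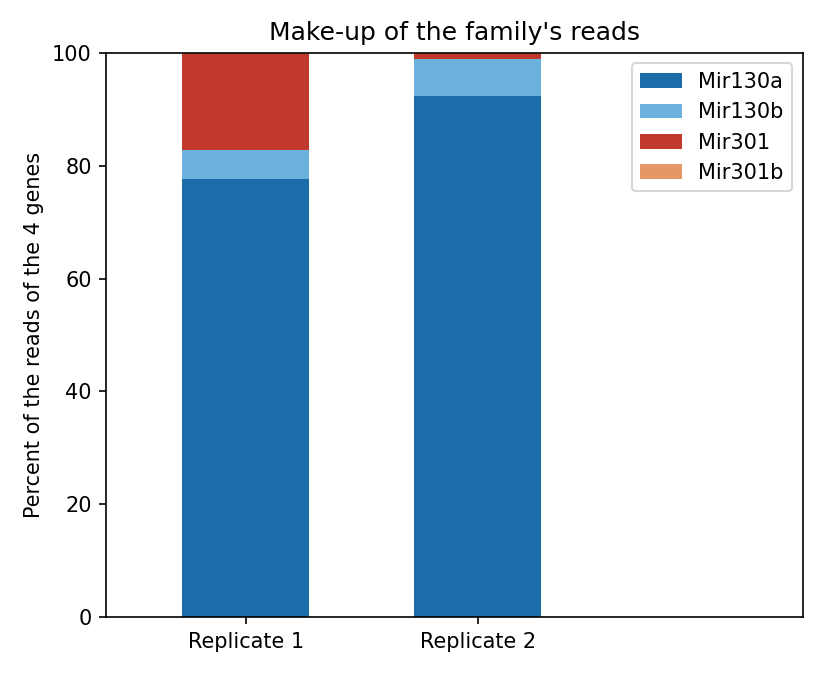
Percent of the reads of the 4 genes that each gene supplied, as stacked bars for each library. Mir301 takes 17.0% of the bar of replicate 1 and 1.01% of that of replicate 2, and Mir301b, at 0.225% and 0.102%, is too thin to be seen.

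All 4 members were lower in replicate 2, and 2 of 4, Mir301 and Mir301b, by 2-fold or more. Over the 542 genes at 2 CPM or more in either library, 55.0% were lower in replicate 2 by any amount. Of these 542 genes 25.3% were at least 2-fold apart in either direction, 13.3% at least 2-fold lower in replicate 2 and 12.0% at least 2-fold higher. Among the 351 genes at 10 CPM or more in either library, which leaves out genes of few reads, 15.1% were at least 2-fold apart and 8.26% at least 2-fold lower in replicate 2. Since the family was selected with this comparison known, nothing further was read from these counts.

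Ratios of the levels, replicate 2 over replicate 1, were taken on the log2 scale after adding 0.5 to every count. The log2 ratio was -4.78 for Mir301 (exact binomial interval -5.11 to -4.49) and -1.80 for Mir301b (-3.07 to -0.82). It was -0.46 for Mir130a (-0.50 to -0.42) and -0.38 for Mir130b (-0.53 to -0.23). The median log2 ratio of the 4 members was -1.13. It includes Mir301, on whose difference the family was selected, so nothing is read from setting it beside other genes. Over the 542 genes the median log2 ratio was -0.09 and the median size of a ratio was 0.46. At matched level the median size was smaller, at 0.22 over the 105 genes with a mean above 1000 CPM, where Mir130a lies, and 0.34 over the 112 genes with a mean of 100 to 1000 CPM, where Mir130b and Mir301 lie. The ratio of Mir130a was larger in size than the median at its level. For Mir130b the counting interval included the median size at its level. For Mir301 the size of the ratio is the difference on which the family was selected. Mir301b lies among the 119 genes with a mean of 10 to 100 CPM, whose median size was 0.39. For the summed family the log2 ratio was -0.71 (-0.75 to -0.68), and -0.46 without Mir301 (-0.49 to -0.42).

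Mir301 had the second lowest ratio of the 542 genes, and Mir301b stood at place 28, Mir130a at 146 and Mir130b at 161 from the lowest. Only Mir451a, with 1973 and 36 reads and a log2 ratio of -5.14, was lower. The 3 genes after Mir301 in this order, Mir8092, Mir5616 and Gm28033, had 10, 8 and 7 reads in replicate 1 and 0 in replicate 2. Of the 116 genes that reached 1000 CPM in either library, 11 were at least 2-fold apart, 4 of them lower in replicate 2. Mir301 was among these 4 and reached 1000 CPM in replicate 1 alone. Its place there and its place among the 542 genes both follow from the difference on which the family was selected.

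**Figure D3:**
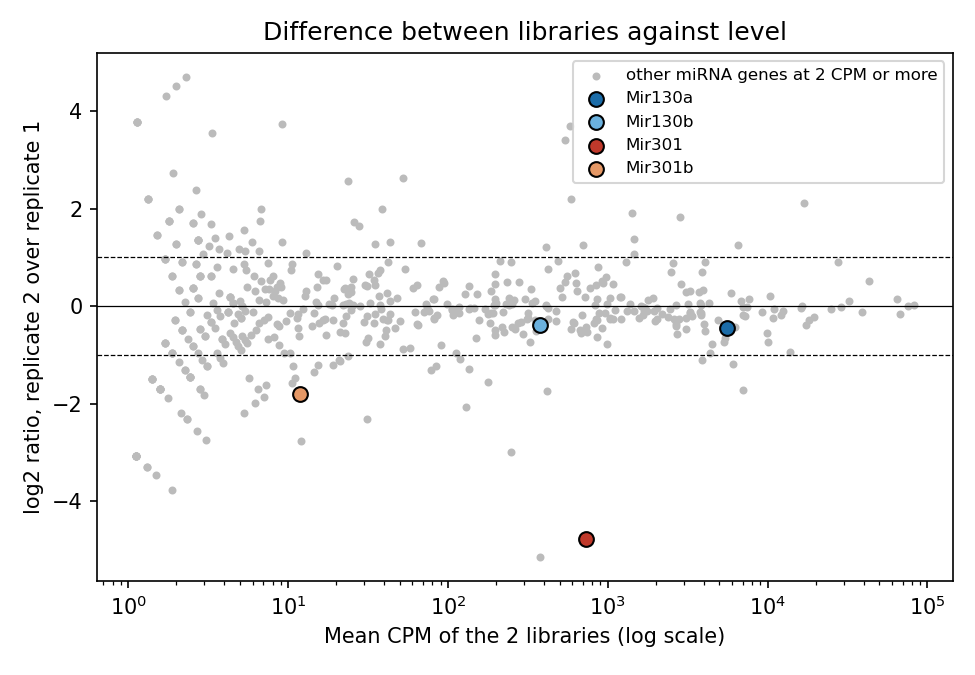
Log2 ratio of replicate 2 over replicate 1 against the mean CPM on a log axis for the 542 genes at 2 CPM or more in either library, with the 4 members coloured and dashed lines at 2-fold. Mir301 lies at -4.78 near the bottom of the plot, Mir301b at -1.80, and Mir130a at -0.46 and Mir130b at -0.38 between the dashed lines.

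The members that share a locus were not those with similar ratios. Mir130b (chromosome 16, 17124061 to 17124142, minus strand, mm10) and Mir301b (17124400 to 17124496) lie 257 bases apart on 1 strand, in the first intron of the protein-coding gene 2610318N02Rik in all 3 transcripts that span them. Hairpins so close are commonly cut from 1 primary transcript. Mir130b held 22.8 times the reads of Mir301b in replicate 1 (exact binomial interval 17.2 to 30.9) and 63.7 times in replicate 2 (33.3 to 139.9). These ratios compare reads within a library and need no scaling between libraries.

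Mir301 (chromosome 11, 87113004 to 87113089, plus strand, mm10) lies alone, in the first intron of Ska2 in both transcripts that span it and with no other miRNA gene within 10000 bases. The libraries held small RNA, so the level of Ska2 itself was not measured. Side by side, the miR-301 genes on chromosomes 11 and 16 had log2 ratios of -4.78 and -1.80, and the miR-130 genes on chromosomes 2 and 16 had -0.46 and -0.38. The intervals of Mir301 and Mir301b did not overlap each other, and neither overlapped those of the miR-130 genes. They cover counting error only, and Mir301b had 9 reads in replicate 2. The ratio of Mir301 is the difference on which the family was selected, so nothing further was read from this.

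The hairpins differed in length and composition as well. Mir130a had 64 bases and 45.3% G and C, Mir130b 82 bases and 56.1%, Mir301 86 bases and 48.8%, and Mir301b 97 bases and 53.6%. The predicted folding energy, lower where the hairpin is more stable, was -22.1 kcal/mol for Mir130a, -30.1 for Mir130b, -37 for Mir301 and -39.1 for Mir301b. From the least to the most stable hairpin, and from the shortest to the longest, the order was the order of the levels in replicate 2. In replicate 1 it was not, because Mir301 stood above Mir130b. With 4 genes this is a description.

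Outside the 4 members, 4 other genes in the RefSeq table had a mature strand with the same seed. They are shown because the letters after the seed resemble those of particular members.
miR-6341: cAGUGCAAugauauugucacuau
miR-721: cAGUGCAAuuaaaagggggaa
miR-6389: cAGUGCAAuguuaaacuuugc
miR-130c: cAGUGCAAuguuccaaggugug
miR-6341 matched miR-301a-3p at 17 of 23 bases and miR-130a-3p at 13 of 22. miR-130c matched miR-130a-3p at 16 of 22 bases. All 4 genes had 0 reads in both libraries. The Wilson interval of 0 reads reaches up to 1.43 CPM in replicate 1 and 2.20 CPM in replicate 2 among uniquely mapped reads. Among the 4 members and these 4 genes, counted reads were thus limited to the members. The RefSeq table held no 3p strand of Mir301b, so it can also lack strands of other genes with this seed.

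Seeds that overlap that of the family were followed in a list of 6 genes, whose 3p seeds share 6 bases with it at a shift of 1 base. The miR-148/152 genes, known as regulators of the DNA methyltransferase Dnmt1, carry the shift in 1 direction, and the miR-19 genes, which belong to clusters that promote proliferation, in the other.
miR-148a-3p: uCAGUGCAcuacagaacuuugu
miR-19a-3p: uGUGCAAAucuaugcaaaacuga
Of the 6 genes, 3 reached 2 CPM in both libraries and 4 in either. Mir148a had 559 reads (209 CPM) in replicate 1 and 87 (49.7 CPM) in replicate 2, a log2 ratio of -2.06 (exact binomial interval -2.41 to -1.74). Mir148b had 302 and 79 reads, or 113 and 45.1 CPM (log2 ratio -1.31, -1.70 to -0.96). Mir152 had 131 and 56 reads, or 48.9 and 32.0 CPM (-0.61, -1.09 to -0.15).

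Mir19a, Mir19b-1 and Mir19b-2 had 7, 3 and 1 reads in replicate 1 and 3, 1 and 0 in replicate 2, too few for a direction. The 3 miR-148/152 genes were all lower in replicate 2, against 55.0% of the 542 genes, and 2 of them, Mir148a and Mir148b, by 2-fold or more, against 13.3%. The summed level of the list was 374.5 CPM in replicate 1 and 129 CPM in replicate 2, against 8281 and 5059 CPM for the 4 members.

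**Figure D4:**
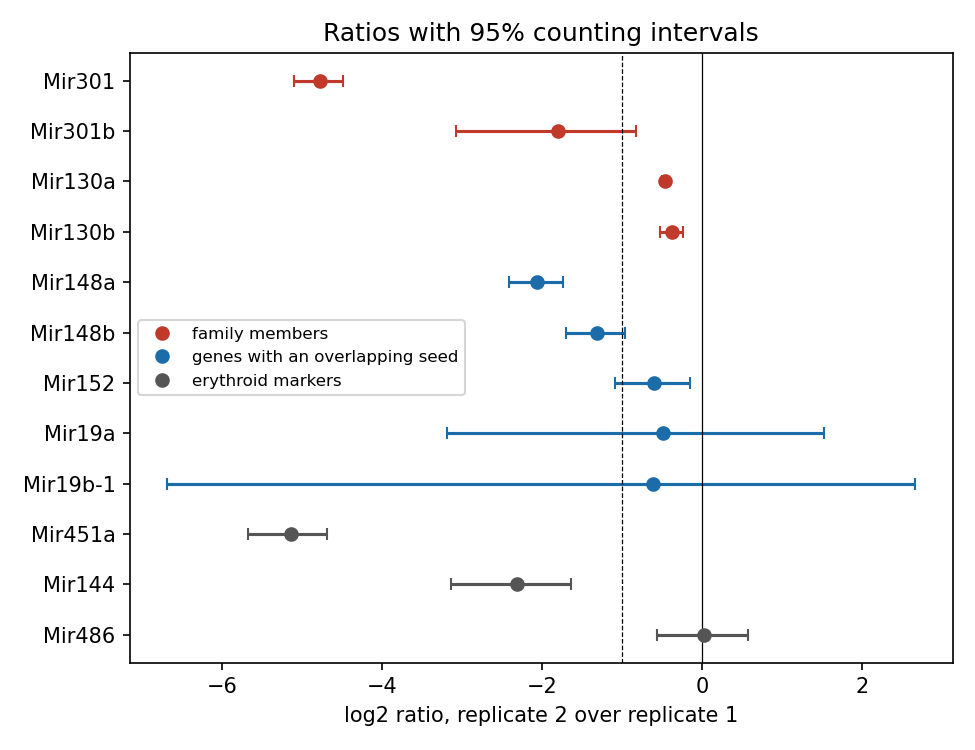
Log2 ratio of replicate 2 over replicate 1 with 95% exact binomial counting intervals for the 4 members, the genes with an overlapping seed and the erythroid markers; the dashed line marks 2-fold lower, and Mir19b-2, with 0 reads in replicate 2, is left out. Mir301 at -4.78 lies beside Mir451a at -5.14, Mir148a at -2.06 beside Mir301b at -1.80, and Mir486 at 0.02.

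The genes with the most similar pair of levels were found by the Euclidean distance between their log2 CPM values in the 2 libraries. For Mir301 they were Mir451a at a distance of 1.59, Mir153 at 1.68 and Mir16-1 at 2.21. Mir153, a neuronal miRNA, had 441 and 54.9 CPM, and Mir16-1 had 643 and 191 CPM. For Mir301b the nearest were Mir6945 (distance 0.215), Mir5121 (0.233) and Mir363 (0.395). For Mir130a they were Mir26b (0.161), Mir23a (0.225) and Mir342 (0.231), and for Mir130b Mir380 (0.0478), Mir346 (0.153) and Mir6540 (0.162). The nearest genes to Mir301 lay farther from it than the nearest genes to the other members did from theirs. The distance is taken from the 2 levels whose difference was the ground for selecting the family, so nothing further was read from this. With 2 libraries the measure rests on 2 values for each gene and is a description.

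Markers of other cell types were set beside the difference of Mir301. Of the erythroid list, Mir451a (1973 and 36 reads) and Mir144 (140 and 18 reads) were at least 2-fold lower in replicate 2, against 13.3% of the 542 genes. They neighbour each other at a locus active in red cell precursors. The counts of Mir486 were 68 and 45 (log2 ratio 0.02). The summed level of the 3 erythroid genes was 814 CPM in replicate 1 and 56.6 CPM in replicate 2, and none was at 0. Their part in the result was not tested. In bulk tissue, fewer cells of a type and less of a miRNA per cell cannot be told apart.

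The endothelial Mir126a stood at 9622 and 11137 CPM, and the mural genes Mir143 and Mir145a summed to 4016 and 4077 CPM, with 0 of these 3 genes at least 2-fold apart. Of 5 leukocyte and microglia genes, 0 were at least 2-fold apart, and their sum was 8755 and 6881 CPM. Most of that sum was Mir342, at 7129 and 5283 CPM. Over the 542 genes 25.3% were at least 2-fold apart in either direction, so nothing is read from 0 of 3 or 0 of 5. The neuron-associated list summed to 45064 and 34925 CPM, with 10 of 13 genes lower in replicate 2, 3 of them by 2-fold or more, 2 at least 2-fold higher and a median log2 ratio of -0.77. Over the 542 genes the shares lower, at least 2-fold lower and at least 2-fold higher were 55.0%, 13.3% and 12.0%. Mir124a-1, Mir124a-3 and Mir9-2 reached 2 CPM in replicate 1 alone. Mir124a-2, at 0 in replicate 1, reached it in replicate 2 alone. The minimum level fixed the direction of these genes, so nothing is read from the counts of the neuron-associated list.

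The ciliated cell and choroid plexus list went the other way, at 1120 and 2768 CPM. Of its 5 genes at 2 CPM or more in either library, 4 were at least 2-fold higher in replicate 2, against 12.0% of the 542 genes. They were led by Mir34c at 93.4 and 993 CPM, while Mir34b had only 3 and 30 reads and Mir449c 0 and 6. Mir34b and Mir449c reached 2 CPM in replicate 2 alone, so the minimum level fixed their direction. Nothing is therefore read from the count of genes that were higher. Mir449b was at 0 in replicate 2. The 3 oligodendrocyte genes summed to 834 and 1423 CPM with 0 at least 2-fold apart, against 25.3% of the 542 genes. The 9 genes of the liver, muscle and epithelium list summed to 288 and 310 CPM, with Mir200b at least 2-fold lower and Mir208a at least 2-fold higher in replicate 2. The part of any of these lists in the difference of Mir301 or Mir301b was not tested.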

How the data were processed

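Per the text deposited beside each sample, the authors' files hold miRNA quantifications on mm10 with annotation M21. The deposited values are raw counts of reads for each gene, with 1 file for each library and no scaling by the authors. No source used here names the aligner, the counter or the trimming. The 3 count columns have no header and were read from their values as unstranded, sense and antisense; the column of sense reads, the larger of the stranded columns, was divided by its sum over the 2202 rows that name a gene (CPM). The 4 rows that name no gene were left out: in replicates 1 and 2, 25.5% and 42.4% of all reads were unmapped, 38.2% and 28.3% had more than 1 place in the genome, and 6.93% and 5.74% lay outside genes. CAST alleles that differ from mm10 were not considered.

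The members, the gene lists and the rule for named genes (members, genes with the same or an overlapping seed, the 3 nearest genes by level, the 3 on each side of Mir301 by ratio, and cell type markers) were chosen with earlier results of these data known. Mir6368 and the markers named as leading their list were named after their values were seen. With 1 group there was no test. Replicates are separately numbered animals with 1 library each, so their spread mixes animal, dissection and library. Intervals are Wilson for shares and exact binomial for ratios, at 95%, and the interval of a ratio was checked on simulated data. Python 3.11.15, scipy 1.17.1, RNAfold 2.7.2, and for scaling alternatives edgeR 4.0.16 (TMM) and DESeq2 1.42.0 were used. Alternatives changed the count column, the scaling, the reads added, the minimum level and the replicate left out.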

Additional observations from a re-analysis of the deposited data

How the results depend on the processing

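Of the 30 log2 ratios recomputed under other settings, 21 stayed within their counting interval, 9 moved beyond it and 0 reversed direction. Levels were judged by their SD and counts of genes by a fixed fold, so a direction applies to the log2 ratios only. With 2 libraries, a value with 1 replicate left out always lies within the SD of the mean. Those settings could therefore not count as moved. Of all 71 recomputed values, 15 moved beyond their limit. With all mapped reads as the denominator the mean levels were 2226 CPM for Mir130a, 151 for Mir130b, 2671 for the summed family and 2382 without Mir301. Mir301 and Mir301b were lower too, at 288 and 4.74 CPM, but stayed within their larger SD. This denominator holds reads that no gene can receive. Under edgeR's TMM totals, DESeq2's size factors and all mapped reads, every log2 ratio shifted up by 0.05, 0.07 and 0.05. That took Mir130a to -0.41, -0.39 and -0.41, the summed family to -0.66, -0.64 and -0.66, and the sum without Mir301 to -0.40, -0.39 and -0.41, outside their narrow counting intervals and in the same direction. The log2 ratio of Mir301 ran from -4.79 (unstranded counts) to -4.71 (DESeq2 size factors). Genes at least 2-fold apart numbered 137, against 53 with a 10 CPM minimum and 243 with no minimum beyond 1 read, since fewer or more genes of few reads then entered. Mir301, Mir301b and the ratio of Mir130b to Mir301b depend on which library is taken: without replicate 1 they were 50.9 CPM, 5.14 CPM and 63.7, and without replicate 2 they were 1406 CPM, 18.7 CPM and 22.8. The 9 reads of Mir301b in replicate 2 limit what can be said of its ratio. With 2 libraries no other animal is spoken for.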
